A study of Homo sapiens with 9 samples.

Results

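The genes described here are the core of the TGF-beta pathway, measured in the human monocytic leukaemia line THP-1. They were chosen by name, with earlier results of these data known. They comprise the ligands TGFB1, TGFB2 and TGFB3, the receptors TGFBR1 and TGFBR2, the transducers SMAD2, SMAD3 and SMAD4, and the inhibitors SMAD7 and SKIL. All 10 of 10 were found among the 16222 genes of the deposited tables, and all 10 passed the filter on low counts that left 12970 genes to test. RNA sequencing was done in 9 libraries of cells with a wild-type genotype, 3 in each of 3 groups. The LPS_ABS libraries came from cells given PMA, LPS and ABS, the LPS libraries from cells given PMA and LPS, and the control libraries from cells given PMA and PBS. All groups thus shared PMA, the phorbol ester used to turn THP-1 monocytes into adherent, macrophage-like cells. LPS is bacterial lipopolysaccharide, which cells sense through Toll-like receptors. The labels do not spell out ABS, the series title speaks of apoptotic bodies, and neither dose nor time is given in the sources used here. Separate cultures are not stated for the libraries, so the p-values reflect the spread among these samples only, and that spread may be technical.

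TGF-beta is secreted bound to a propeptide that keeps it latent, and it signals once freed by integrins, proteases or thrombospondin. The active dimer binds TGFBR2, which recruits and phosphorylates TGFBR1, and TGFBR1 then phosphorylates SMAD2 and SMAD3, which enter the nucleus with SMAD4. SMAD7 blocks the receptors and SKIL represses SMAD-bound promoters, and both are themselves switched on by SMADs, so they serve as feedback inhibitors; in macrophages the pathway is known for dampening inflammatory genes, and uptake of dying cells is known to release the ligand.

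Total counts were 38506162 to 38893597 per LPS_ABS library, 39168526 to 41679412 per LPS library and 39791729 to 41608801 per control library. All 16 monocyte and macrophage markers looked for were in the tables, and 14 of them averaged at least 100 counts per library. CD163 and MSR1 were very low, at most at 0.508 and 0.0825 FPKM. The summed FPKM of the 16 markers was 1320 to 1570 in LPS_ABS, 1340 to 1470 in LPS and 1170 to 1250 in control libraries. The LPS_ABS libraries differed from the rest in a trend of counts with transcript GC content. Relative to the mean of all libraries, the slope of log2 counts per 10 points of GC content was 0.221, 0.319 and 0.362 in LPS_ABS, -0.30, -0.0241 and -0.117 in LPS and -0.169, -0.152 and -0.139 in control libraries. Tests of the 10 genes are therefore given without a GC correction and with a GC offset, in which the trend fitted in each library enters the model. Called genes are those with an adjusted p under 0.05 in edgeR's quasi-likelihood test.

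The results turn on the SMAD7 and SKIL inhibitors, and their promoters are shown because both are known SMAD target genes. Each window runs from 250 bases before to 50 bases after the transcription start in RefSeq (GRCh38.p14) and is read along the gene's own strand. The table lists 3 windows for SMAD7 and 1 for SKIL; the first listed was taken for every gene, so other starts of SMAD7 are not covered. Capitals mark the SMAD box CAGAC, the short element that SMAD3 and SMAD4 bind, or its reverse complement GTCTG. SMAD7 lies on the minus strand of chromosome 18 with its window at chr18:48950916-48951215, and SKIL on the plus strand of chromosome 3 with its window at chr3:170357465-170357764.
SMAD7: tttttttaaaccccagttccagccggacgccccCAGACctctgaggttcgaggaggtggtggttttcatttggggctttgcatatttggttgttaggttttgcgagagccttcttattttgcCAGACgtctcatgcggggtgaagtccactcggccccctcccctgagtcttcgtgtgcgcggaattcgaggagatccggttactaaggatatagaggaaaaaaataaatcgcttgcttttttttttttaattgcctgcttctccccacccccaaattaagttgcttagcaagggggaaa
SKIL: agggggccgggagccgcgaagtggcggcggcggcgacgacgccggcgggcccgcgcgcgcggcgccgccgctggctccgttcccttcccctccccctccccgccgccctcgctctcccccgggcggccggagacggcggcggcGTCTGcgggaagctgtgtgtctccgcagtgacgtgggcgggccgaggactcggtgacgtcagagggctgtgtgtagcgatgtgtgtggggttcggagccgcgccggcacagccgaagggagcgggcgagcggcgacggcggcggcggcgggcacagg

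The SMAD7 window held CAGAC on its own strand, first base -217 and -128 relative to the start, and the SKIL window held GTCTG with its first base at -107. These matches describe the letters and are common: searched on both strands, CAGAC occurred in 45.0% of 27305 promoter windows of the same length and in 6 of the 10 genes' windows. The SMAD palindrome GTCTAGAC was found in 0.201% of all windows and in 0 of the 10. Only the first listed window of each gene was searched, so a match near another start, as of SMAD7, would be missed. GGCGCC, a GC-rich SMAD motif, was found in 19.0% of all windows and in 4 of the 10, SKIL among them, and the AP-1 element TGANTCA in 7.76% of all windows and in 0 of the 10. The windows differed in composition, with 48.3% GC for SMAD7 and 79.0% GC for SKIL.

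Across all 9 libraries the ligand pool was almost wholly TGFB1. Levels are the deposited FPKM, which are scaled per length and can be compared between genes, and they are given as mean ± SD over 3 libraries. TGFB1 (gene ID 7040, chr19:41330323-41353922 in RefSeq, GRCh38.p14) is the ligand of immune cells. It stood at 92.2 ± 9.27 FPKM in LPS_ABS, 62.4 ± 9.43 FPKM in LPS and 80.3 ± 4.5 FPKM in control libraries. Its mean over all libraries exceeded that of 94.0% of the genes in the tables. TGFB3 (gene ID 7043), a ligand of mesenchymal and epithelial tissues, was at 0.485 ± 0.218 FPKM in LPS_ABS, 0.272 ± 0.0870 FPKM in LPS and 0.331 ± 0.0466 FPKM in control libraries. TGFB2 (gene ID 7042), a ligand of neural and mesenchymal tissues, was at 0.0682 ± 0.0449 FPKM in LPS_ABS, 0.0459 ± 0.0247 FPKM in LPS and 0.105 ± 0.0615 FPKM in control libraries, the lowest of the 10 genes. TGFB1 made up 99.2 to 99.6% of the summed FPKM of the 3 ligands in every library. TGFB2 had 13, 27 and 7 reads in LPS_ABS, 10, 6 and 17 in LPS and 11, 25 and 40 in control libraries, so counting error weighs on its fold changes.

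In deposited FPKM the receptors were of a level with each other outside the LPS_ABS group, but this depends on the gene lengths. TGFBR2 (gene ID 7048), the receptor that binds the ligand first, was at 4.37 ± 1.21 FPKM in LPS_ABS, 4.43 ± 0.457 FPKM in LPS and 4.95 ± 0.235 FPKM in control libraries. TGFBR1 (gene ID 7046), the receptor kinase that phosphorylates SMADs, was at 2.20 ± 0.884 FPKM in LPS_ABS, 4.46 ± 0.361 FPKM in LPS and 4.37 ± 0.165 FPKM in control libraries. The ratio of TGFBR2 to TGFBR1 in FPKM was 1.15, 2.21 and 3.33 in LPS_ABS, 1.02, 0.954 and 1.0 in LPS and 1.17, 1.17 and 1.06 in control libraries. The ratios of LPS_ABS 2 and LPS_ABS 3 lay above those of all LPS and control libraries, and that of LPS_ABS 1 lay within the range of the controls. With GENCODE exon lengths TGFBR2 stood above TGFBR1 in all groups, at 5.18 to 8.19 and 1.48 to 2.88 in LPS_ABS, 5.91 to 7.04 and 3.72 to 4.35 in LPS and 6.75 to 7.4 and 3.74 to 4.01 in control libraries.

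Among the transducers SMAD3 was far above SMAD2 in deposited FPKM, but the size of the gap rests on the length given to SMAD2. SMAD3 (gene ID 4088), which binds DNA directly, was at 16.7 ± 2.5 FPKM in LPS_ABS, 16.5 ± 3.04 FPKM in LPS and 13.6 ± 1.10 FPKM in control libraries. SMAD4 (gene ID 4089), the partner shared by all receptor-activated SMADs, was at 3.12 ± 0.446 FPKM in LPS_ABS, 4.63 ± 0.626 FPKM in LPS and 4.44 ± 0.279 FPKM in control libraries. SMAD2 (gene ID 4087), whose main form does not bind DNA by itself, was at 1.01 ± 0.0520 FPKM in LPS_ABS, 1.51 ± 0.147 FPKM in LPS and 1.47 ± 0.0946 FPKM in control libraries. The ratio of SMAD3 to SMAD2 was 14.2, 17.0 and 18.2 in LPS_ABS, 7.91, 11.9 and 13.6 in LPS and 8.73, 9.52 and 9.49 in control libraries, so the LPS_ABS libraries lay above all others and LPS overlapped the controls. This ratio depends on the length given to SMAD2, which the FPKM values put at 41648 bases. GENCODE's summed exons of SMAD2, 36366 bases, are of like length, so they test this dependence little. In reads, not scaled by length, SMAD3 had 3734 to 5487 and SMAD2 1535 to 2912 per library. With the summed exon lengths of GENCODE the ratio was 9.90 to 12.7 in LPS_ABS, 5.5 to 9.47 in LPS and 6.08 to 6.62 in control libraries. Each gene has the same length in every library, so other lengths rescale all libraries alike and cannot change their order. SMAD3 transcripts have 50.4% GC and SMAD2 transcripts 40.2%, and neither ratio is corrected for the GC trend. In scaled log2 counts with that trend removed, SMAD3 was 6.83, 6.86 and 7.01 in LPS_ABS and 6.6, 6.96 and 7.17 in LPS. SMAD2 was 5.68, 5.85 and 6.04 in LPS_ABS and 5.77, 5.75 and 5.73 in LPS. On that scale the gap between them in LPS_ABS lay within the range of LPS, so the separation of LPS_ABS from LPS depended on the correction.

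Of the inhibitors, SMAD7 (gene ID 4092, chr18:48919853-48950965) was at 11.1 ± 0.728 FPKM in LPS_ABS, 5.71 ± 1.24 FPKM in LPS and 8.87 ± 0.528 FPKM in control libraries. SKIL (gene ID 6498, chr3:170357715-170396849), also called SnoN, was at 0.838 ± 0.406 FPKM in LPS_ABS, 1.78 ± 0.286 FPKM in LPS and 0.900 ± 0.0901 FPKM in control libraries. By mean FPKM over all libraries the order was TGFB1, SMAD3, SMAD7, TGFBR2, SMAD4, TGFBR1, SMAD2, SKIL, TGFB3 and TGFB2. In the control libraries SMAD4 and TGFBR1 did not differ beyond their spread, at 4.13 to 4.67 and 4.18 to 4.48 FPKM, while the libraries of the other neighbours in the order did not overlap. In LPS libraries SKIL and SMAD2 overlapped, at 1.5 to 2.07 and 1.42 to 1.68 FPKM, as did TGFBR2, SMAD4 and TGFBR1 with one another and SMAD7 with TGFBR2. In LPS_ABS libraries SMAD4 overlapped TGFBR1, and SKIL overlapped both SMAD2 and TGFB3. With GENCODE exon lengths 2 pairs of neighbours changed places, TGFBR2 coming before SMAD7 and TGFBR1 before SMAD4. SMAD2 kept its place, but both of its lengths are very long, 41648 and 36366 bases. Its low place in the order therefore rests on those lengths. The plot of levels by library shows the deposited FPKM.

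**Figure D1:**
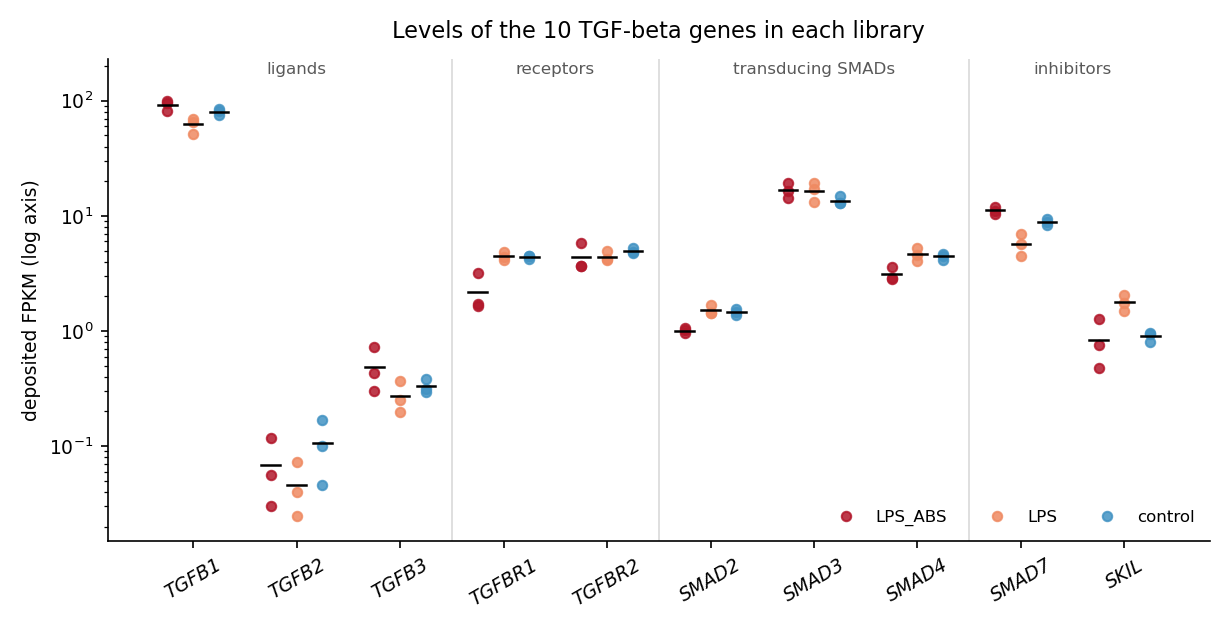
Deposited FPKM (log axis) of the 10 genes, ordered by role, with a point per library for LPS_ABS, LPS and control and a bar at each group's mean. TGFB1 lies at 51.7 to 98.6 FPKM in all 9 libraries, and TGFB2 lies at 0.0245 to 0.169 FPKM.

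LPS against control asks what the bacterial stimulus changed. SMAD7 fell and SKIL rose, so the pair of feedback inhibitors moved in opposite directions, and none of the 3 ligands, the receptors or the transducing SMADs passed the test. These 2 of 10 genes stood beside 14.9% of all genes tested called in this comparison, 7.71% higher and 7.19% lower. With the GC offset the same 2 genes were called, beside 21.2% of all genes, 11.4% higher and 9.71% lower.

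SMAD7 had 15.8, 20.8 and 25.9 CPM (counts scaled to library size after TMM normalisation) in LPS libraries, against 29.5, 31.6 and 33.9 CPM in control libraries. All LPS libraries lay below all control libraries, with LPS 1 the lowest. The log2 fold change of SMAD7 was -0.60 ± 0.17 (SE; edgeR adjusted p = 0.0307), and -0.58 ± 0.14 with the GC offset (adjusted p = 0.0103). In bulk RNA, fewer cells with SMAD7 and less SMAD7 RNA per cell cannot be told apart, and the same holds for every gene below.

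SKIL had 14.6, 10.9 and 13.0 CPM in LPS libraries, against 5.61, 6.76 and 6.77 CPM in control libraries. The groups were wide apart, the lowest LPS library standing above the highest control. SKIL had a log2 fold change of 1.01 ± 0.29 (edgeR adjusted p = 0.0385), and 0.96 ± 0.17 with the GC offset (adjusted p = 0.00197). In FPKM the ratio of SMAD7 to SKIL was 2.15, 3.81 and 3.96 in LPS libraries, against 10.4, 9.29 and 9.95 in control libraries, with no overlap.

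Without the GC offset both calls depended on single libraries. SMAD7 lost its call without LPS 1, LPS 2, control 1, control 2 or control 3 (log2 fold changes -0.44 to -0.65, adjusted p = 0.0676 to 0.114), and SKIL without LPS_ABS 2, LPS 1, LPS 3, control 1, control 2 or control 3 (0.90 to 1.05, adjusted p = 0.0524 to 0.13). LPS_ABS 2 is in neither group of this comparison, and without it the log2 fold change of SKIL stayed at 1.01. An LPS_ABS library enters here only through the scaling and the spread estimated over all 3 groups. Without control 1, control 2 or control 3 the number of the 10 genes called was 0, and without LPS 1 SMAD3 was called (0.47, adjusted p = 0.0483). With the GC offset SMAD7 and SKIL kept their calls whichever library was left out, in 9 of 9 fits each, with ranges of -0.74 to -0.51 and 0.83 to 1.05.

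TGFB1 had 104, 144 and 140 CPM in LPS libraries, against 170, 164 and 155 CPM in control libraries, with LPS 1 the lowest and the groups apart. Its log2 fold change of -0.33 ± 0.14 did not pass (adjusted p = 0.14; -0.30 ± 0.10 and adjusted p = 0.0567 with the GC offset). With the offset it was called lower without LPS_ABS 1, LPS_ABS 2 or LPS_ABS 3 (-0.29 to -0.30, adjusted p = 0.0277 to 0.0447). SMAD3 had 92.3, 122 and 141 CPM in LPS libraries, against 89.5, 103 and 92.4 CPM in control libraries, and the groups overlapped. The log2 fold change of SMAD3 was 0.32 ± 0.16 (adjusted p = 0.205; 0.35 ± 0.14 and adjusted p = 0.0944 with the GC offset). TGFBR1, TGFBR2, SMAD2 and SMAD4 had log2 fold changes of 0.06, -0.13, 0.07 and 0.09, none past the test and each with overlapping groups (adjusted p = 0.651 to 0.905). Their values with the offset were 0.08, -0.10, 0.10 and 0.13 (adjusted p = 0.563 to 0.769). TGFB3 stood at -0.26 ± 0.38 and TGFB2 at -1.17 ± 0.67 (adjusted p = 0.707 and 0.272), and at -0.26 and -1.16 with the offset (adjusted p = 0.678 and 0.25).

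**Figure D2:**
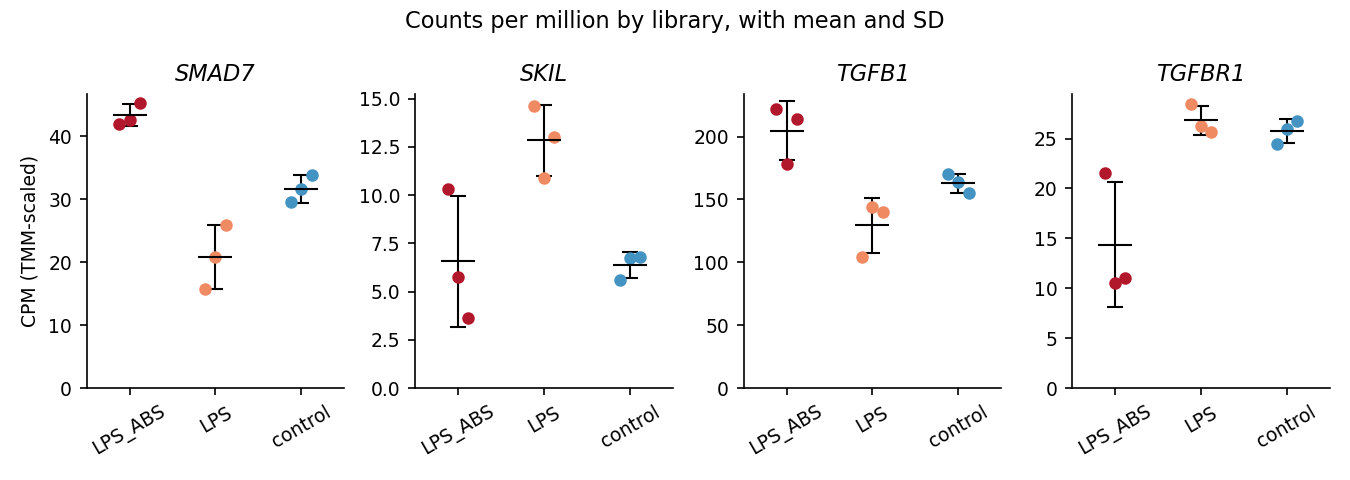
CPM after TMM scaling of SMAD7, SKIL, TGFB1 and TGFBR1 in each library, with the mean (bar) and SD (whiskers) of LPS_ABS, LPS and control. SMAD7 is at 42.0 to 45.3 CPM in LPS_ABS, 15.8 to 25.9 CPM in LPS and 29.5 to 33.9 CPM in control libraries, and SKIL has its highest mean, 12.8 CPM, in LPS.

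LPS_ABS against LPS asks what changed further with ABS. SMAD7 rose and kept its call with the GC offset. Of the other genes, TGFB1 rose and TGFBR1, SMAD2, SMAD4 and SKIL fell without a GC correction, but none of these 5 was called with the offset. In all 6 of 10 genes were called without correction, 2 higher and 4 lower, beside 35.6% of all genes tested, 16.8% higher and 18.8% lower. With the GC offset it was 1 of 10, beside 9.26% of all genes, 5.03% higher and 4.23% lower. This comparison and LPS against control share the LPS libraries, so a low or high value in LPS enters both with opposite sign.

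SMAD7 had 42.0, 42.6 and 45.3 CPM in LPS_ABS libraries, against 15.8, 20.8 and 25.9 CPM in LPS libraries. The LPS_ABS libraries lay close together and all stood well above the LPS libraries. The log2 fold change of SMAD7 was 1.05 ± 0.17 (edgeR adjusted p = 0.0038), and 0.67 ± 0.14 with the GC offset (adjusted p = 0.0147), smaller by over 1.5 times. Without the offset the call was kept in 9 of 9 fits that left out a library, with 0.89 to 1.24. With the offset it was kept in 8 of 9, at 0.59 to 0.83, and was lost without LPS 1 (0.59, adjusted p = 0.0633). SMAD7 transcripts have 58.7% GC, and the 851 tested genes within 1 point of that had a median log2 fold change of 0.41, with the middle 50% between 0.17 and 0.64.

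TGFB1 had 222, 178 and 214 CPM in LPS_ABS libraries, against 104, 144 and 140 CPM in LPS libraries, and the groups were apart. TGFB1 had a log2 fold change of 0.66 ± 0.14 (edgeR adjusted p = 0.00722), and 0.22 ± 0.10 with the GC offset (adjusted p = 0.184). TGFB1 has the most GC-rich transcript of the 10 genes, at 63.5%, and the 592 genes within 1 point of it had a median of 0.45. TGFB1 also overlaps 4 protein-coding genes on the opposite strand in the GENCODE annotation (HNRNPUL1, CCDC97, AC011462.1 and TMEM91), and the strand setting of the counting is not given in the sources used here. SMAD7 and SKIL overlap no annotated gene, whereas TGFB3 overlaps IFT43 on the opposite strand and SMAD4 overlaps AC091551.1 on its own strand.

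TGFBR1 had 21.6, 10.5 and 11.0 CPM in LPS_ABS libraries, against 28.5, 26.3 and 25.7 CPM in LPS libraries. LPS_ABS 1 stood apart from the other LPS_ABS libraries and nearer to the LPS libraries, which it did not reach. The log2 fold change was -0.90 ± 0.23 (edgeR adjusted p = 0.013), and -0.31 ± 0.16 with the GC offset (adjusted p = 0.212). Without LPS_ABS 1 it was -1.32 (adjusted p = 8.9e-05), and -0.52 with the GC offset, where TGFBR1 was called (adjusted p = 0.0159). The transcript has 39.0% GC, and the 951 genes within 1 point had a median of -0.66.

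SKIL had 10.3, 5.76 and 3.64 CPM in LPS_ABS libraries, against 14.6, 10.9 and 13.0 CPM in LPS libraries. The highest LPS_ABS library, LPS_ABS 1, lay just under the lowest LPS library. The log2 fold change was -0.97 ± 0.30 (edgeR adjusted p = 0.025), and -0.22 ± 0.17 with the GC offset (adjusted p = 0.409). Without the offset it was -1.45 without LPS_ABS 1 and -0.68 without LPS_ABS 3 (adjusted p = 8.2e-04 and 0.0538), and the call was also lost without LPS_ABS 2, LPS 1 or LPS 3 (-0.86 to -0.96, adjusted p = 0.063 to 0.0897). SKIL has the lowest GC content of the 10 genes, 33.4%, where 81 genes within 1 point had a median of -0.74.

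SMAD2 had 46.0, 41.3 and 45.7 CPM in LPS_ABS libraries, against 66.9, 58.5 and 59.5 CPM in LPS libraries, and the groups were apart. SMAD2 had a log2 fold change of -0.48 ± 0.12 (edgeR adjusted p = 0.0123), but 0.11 ± 0.12 with the GC offset (adjusted p = 0.543). SMAD4 had 27.1, 26.3 and 32.9 CPM in LPS_ABS libraries, against 44.3, 34.7 and 40.8 CPM in LPS libraries, also apart. SMAD4 had a log2 fold change of -0.47 ± 0.14 (adjusted p = 0.0237), but 0.06 ± 0.14 with the GC offset (adjusted p = 0.81). For both transducers the offset thus turned the sign, and the genes within 1 point of their GC content, 40.2% and 41.1%, had medians of -0.61 and -0.52. SMAD4 also lost its call when single libraries were left out, namely LPS_ABS 2, LPS 1 or LPS 3, without the offset (-0.59 to -0.39 over the 9 fits).

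The remaining genes were not called against LPS. TGFBR2 had 27.0, 25.3 and 39.9 CPM in LPS_ABS libraries, against 31.7, 27.4 and 28.1 CPM in LPS libraries, with LPS_ABS 3 the highest and the groups overlapping (log2 fold change 0.08 ± 0.17, adjusted p = 0.744; 0.10 and 0.647 with the GC offset). SMAD3 had 114, 122 and 145 CPM in LPS_ABS libraries and overlapped LPS (0.10 ± 0.16, adjusted p = 0.632), at -0.03 with the offset (adjusted p = 0.916). TGFB3 had 1.84, 1.21 and 2.92 CPM in LPS_ABS libraries, against 0.943, 1.41 and 0.772 CPM in LPS libraries, and its log2 fold change of 0.93 ± 0.38 did not pass (adjusted p = 0.0725; 0.69 ± 0.37 and 0.233 with the offset), while DESeq2 called it without the offset. TGFB2 stood at 0.66 ± 0.69 (adjusted p = 0.47), and at 1.31 ± 0.69 with the offset (adjusted p = 0.23).

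**Figure D3:**
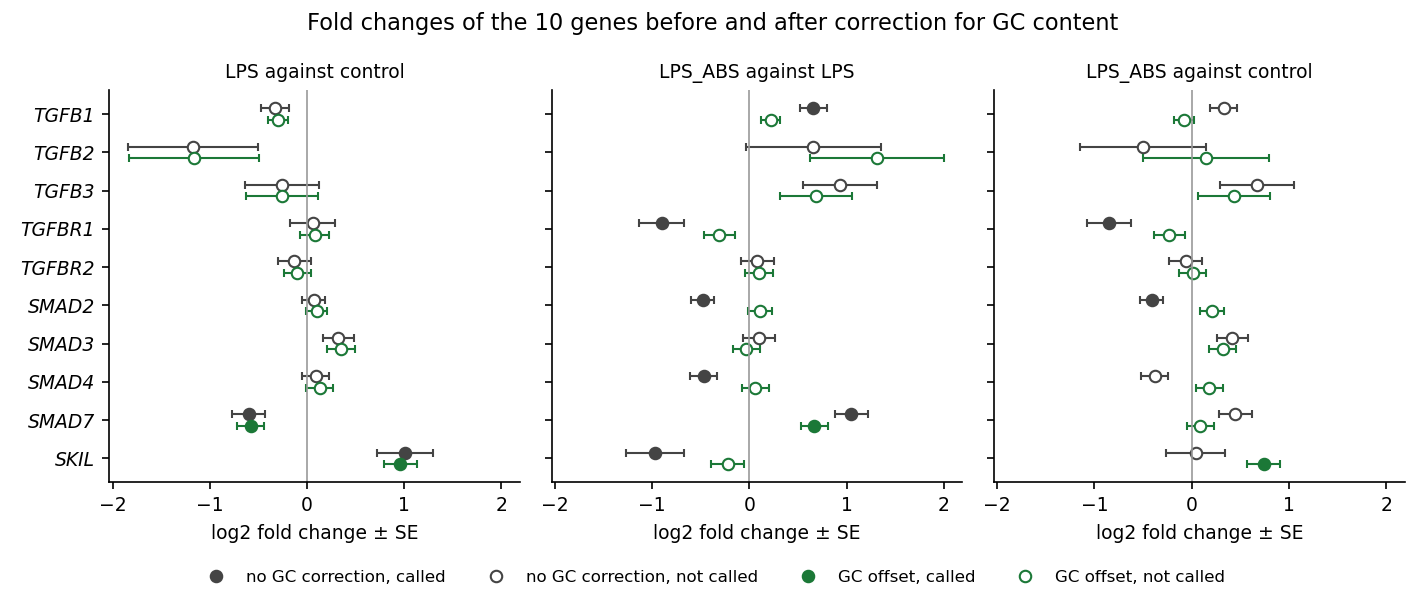
Log2 fold changes ± SE of the 10 genes in the 3 comparisons, without GC correction (grey) and with the GC offset (green); filled points were called at an adjusted p under 0.05. In LPS_ABS against LPS, 6 grey points are filled and 1 green point, that of SMAD7 at 0.67; in LPS against control SMAD7 and SKIL are filled in both colours.

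How far the fold changes followed GC content differed by comparison. Across the 12936 genes tested that had a GC value, which are not independent replicates, Spearman's rho between GC content and log2 fold change was 0.692 for LPS_ABS against LPS and 0.687 for LPS_ABS against control, but 0.0112 for LPS against control. Over the 10 genes described here, rho came to 0.685 in LPS_ABS against LPS and to 0.721 in LPS_ABS against control, and in LPS against control to -0.382. The GC trend moved with the LPS_ABS group, so the trend and the treatment cannot be told apart, and the part of the trend in the results was not tested. With the offset SMAD7 against LPS kept its call, but lost it when LPS 1 was left out (0.59, edgeR adjusted p = 0.0633).

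**Figure D4:**
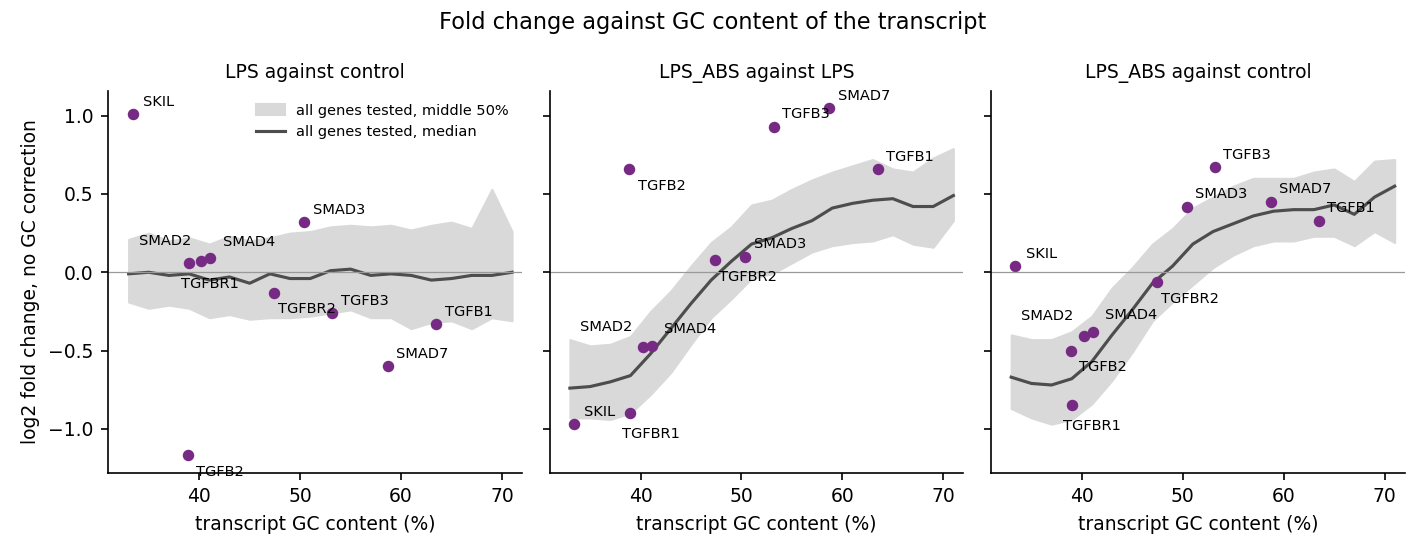
Log2 fold change without correction against GC content of the transcript (%), for the 10 genes (points) and for all genes tested (line, median per bin of GC content; band, middle 50%). For LPS_ABS against LPS the line climbs from -0.74 at the low end to 0.49 at the high end, and SMAD7 at 1.05 lies above the band; for LPS against control the line stays near 0, with SKIL above the band and SMAD7 below it.

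LPS_ABS against control asks where the cells stood after both agents. Without a GC correction TGFBR1 and SMAD2 fell and no gene rose, 2 of 10 beside 33.8% of all genes tested, 14.8% higher and 19.0% lower. With the GC offset neither was called and SKIL was called higher, 1 of 10 beside 13.0% of all genes, 7.94% higher and 5.07% lower. This comparison shares libraries with both others.

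TGFBR1 had 21.6, 10.5 and 11.0 CPM in LPS_ABS libraries, against 24.5, 26.0 and 26.8 CPM in control libraries, with no overlap. Its log2 fold change was -0.85 ± 0.23 (edgeR adjusted p = 0.0159), and -0.23 ± 0.16 with the GC offset (adjusted p = 0.361). Without LPS_ABS 1 it was -1.26 (adjusted p = 9.0e-05), or -0.44 and called with the offset (adjusted p = 0.0352), and without LPS_ABS 2 the uncorrected call was lost (-0.67, adjusted p = 0.0656). SMAD2 had 46.0, 41.3 and 45.7 CPM in LPS_ABS libraries, against 58.8, 62.1 and 55.9 CPM in control libraries, also with no overlap. Its log2 fold change was -0.41 ± 0.12 (edgeR adjusted p = 0.0218), but 0.21 ± 0.12 with the GC offset (adjusted p = 0.249). The SMAD2 call was lost without LPS_ABS 2, control 1 or control 2 (-0.36 to -0.41, adjusted p = 0.0665 to 0.0934), and the number of the 10 genes called ran from 0 without LPS_ABS 2, and 1 without control 1 or control 2, to 6 without LPS 1.

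SKIL had 10.3, 5.76 and 3.64 CPM in LPS_ABS libraries, against 5.61, 6.76 and 6.77 CPM in control libraries. The LPS_ABS values spanned the controls on both sides, and the log2 fold change was 0.04 ± 0.30 (edgeR adjusted p = 0.93). With the GC offset it was 0.74 ± 0.17 (adjusted p = 0.0157), and the call was kept in 8 of 9 fits that left out a library and lost without control 1. On the log2 CPM scale with the GC trend removed, SKIL was 3.39, 3.10 and 2.94 in LPS_ABS libraries, 3.36, 3.35 and 3.42 in LPS libraries and 2.11, 2.52 and 2.58 in control libraries. On that scale the LPS_ABS libraries lay above the controls and LPS_ABS 1 among the LPS libraries, so the order of LPS_ABS and control for SKIL depended on the correction.

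SMAD7 had 42.0, 42.6 and 45.3 CPM in LPS_ABS libraries, against 29.5, 31.6 and 33.9 CPM in control libraries, and the groups were apart. Its log2 fold change of 0.45 ± 0.17 missed the threshold (edgeR adjusted p = 0.052) and was 0.09 ± 0.14 with the GC offset (adjusted p = 0.723). Without the offset SMAD7 and SMAD3 were called by DESeq2. TGFB1 had 222, 178 and 214 CPM in LPS_ABS libraries, all above the control libraries, with a log2 fold change of 0.33 ± 0.14 that did not pass (adjusted p = 0.0885) and -0.08 ± 0.10 with the offset. SMAD3 at 0.42 ± 0.16 and SMAD4 at -0.38 ± 0.14 also missed the threshold without correction (adjusted p = 0.0564 and 0.053). Under the offset SMAD3 stood at 0.32 ± 0.14 and SMAD4 turned to 0.18 ± 0.14 (adjusted p = 0.148 and 0.411). TGFBR2, TGFB3 and TGFB2 had log2 fold changes of -0.06, 0.67 and -0.50 (adjusted p = 0.176 to 0.815), and of 0.01, 0.44 and 0.15 with the offset (adjusted p = 0.468 to 0.97).

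Over the 9 libraries the genes fell into patterns that partly followed GC content. As a description, with the libraries sharing their groups and their GC trends, the log2 CPM of TGFB1 and SMAD7 had r = 0.925 and that of SMAD2 and SMAD4 r = 0.924, while SMAD7 and SKIL had r = -0.738. Among 10634 genes with at least 100 counts on average, those closest to SMAD7 were F3 (r = 0.971), which encodes tissue factor, and CHST14 (0.969). With the GC trend removed they were CD44 (0.966) and SHROOM3 (0.964). Those closest to SKIL were JMY (0.985) and ING3 (0.980), and SIPA1L2 (0.980) and PHAF1 (0.972) with the trend removed. TGFB1 was most like RABL6 (0.995) and NSMF (0.993), and RABL6 was again among its closest with the trend removed (0.974).

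The rest of the pathway was read from 6 lists, of which 110 of 134 genes were tested. A gene in 2 lists is counted in both. The median log2 fold change of all genes tested, beside which the medians of the lists stand, was -0.03 for LPS against control, 0.02 for LPS_ABS against LPS and 0.05 for LPS_ABS against control.

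Of 12 genes listed as other ligands of the superfamily, 2 rose and 2 fell in LPS against control (median -0.32). Beside them stood 7.71% of all genes higher and 7.19% lower, and the 4 listed genes were called with and without the GC offset. INHBE, which encodes the subunit of activin E, was at 72.8 ± 11.1 CPM in LPS and 4.92 ± 1.95 CPM in control libraries (log2 fold change 3.89 ± 0.34, edgeR adjusted p = 7.9e-05). GDF15, a stress-induced member, was at 11.4 ± 0.388 CPM in LPS and 1.38 ± 0.255 CPM in control libraries (3.04 ± 0.47, adjusted p = 0.00137). BMP2 and BMP8B, both bone morphogenetic proteins, fell (-1.16 and -1.01, adjusted p = 0.00744 and 0.0185). INHBE and GDF15 also rose in LPS_ABS against control, at 3.80 and 2.68, with and without the offset. Against LPS, 3 genes of this list rose in LPS_ABS, BMP8B, BMP1 and GDF7, beside 16.8% of all genes, and 0 were called with the offset, beside 9.26%. BMP1 shares the name of the bone morphogenetic proteins but is a protease and not a ligand, so the counts and medians of this list include a gene of another kind.

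Of 10 other receptors, 0 were called in LPS against control without correction, and 1 fell with the GC offset, beside 14.9% and 21.2% of all genes called. LPS_ABS libraries had 1 higher and 3 lower receptors against LPS, and against control 2 rose and 3 fell, with 0 called in either with the offset. Beside these 4 and 5 of 10 stood 35.6% and 33.8% of all genes, and beside the counts of 0 with the offset 9.26% and 13.0%. ENG, a co-receptor of TGF-beta also called endoglin, was at 190.0 ± 41.3 CPM in LPS_ABS and 100 ± 27.0 CPM in LPS libraries (log2 fold change 0.92 ± 0.20, edgeR adjusted p = 0.00694; 0.50 and 0.0557 with the offset). BMPR2, a receptor of bone morphogenetic proteins, fell against LPS (-0.84, adjusted p = 0.0058), and was at -0.14 with the offset. TGFBR3, the betaglycan co-receptor, was called in none of the 3 comparisons (adjusted p = 0.0858 to 0.727).

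Of 3 other SMADs, 1 fell in LPS against control, without and with the GC offset, beside 14.9% and 21.2% of all genes called. In LPS_ABS 1 rose and 1 fell against LPS, beside 35.6% of all genes, and 1 fell against control, beside 33.8%. With the offset 0 were called in either, beside 9.26% and 13.0% of all genes. SMAD6, the inhibitory SMAD of the bone morphogenetic protein branch, was at 18.0 ± 5.39 CPM in LPS_ABS, 8.86 ± 0.695 CPM in LPS and 15.4 ± 2.81 CPM in control libraries. It fell in LPS against control (log2 fold change -0.80 ± 0.21, edgeR adjusted p = 0.026; -0.76 and 0.0208 with the GC offset). It rose without correction in LPS_ABS against LPS (1.02 ± 0.21, adjusted p = 0.00651), and stood at 0.62 with the offset (adjusted p = 0.0753). Against control it was not called in LPS_ABS, and the groups overlapped (0.22 ± 0.21, adjusted p = 0.419; -0.14 and 0.695 with the offset). SMAD5, a transducer of bone morphogenetic proteins, fell in LPS_ABS against LPS and against control (-0.78 and -1.02) and was called in neither with the offset.

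Of 18 genes of latency and activation, 3 fell and 0 rose in LPS against control, with and without the GC offset (median 0.04), beside 14.9% and 21.2% of all genes called. They were ITGB5, an integrin subunit (-0.74 ± 0.19, edgeR adjusted p = 0.0202), EMILIN1, a matrix protein that holds the precursor back (-1.13), and THBS1, thrombospondin, an activator of the latent ligand (-1.17). In LPS_ABS against LPS 6 rose and 2 fell without correction (median 0.63), and 3 rose and 0 fell with the offset (median 0.33), beside 35.6% and 9.26% of all genes called. THBS1 was at 7.75 ± 3.92 CPM in LPS_ABS and 1.93 ± 0.565 CPM in LPS libraries (2.0 ± 0.35, adjusted p = 0.00468, and 2.14 with the offset). MMP9, a protease that can free the ligand, was at 49.1 ± 13.0 CPM in LPS_ABS and 14.9 ± 3.27 CPM in LPS libraries (1.72 ± 0.23, adjusted p = 0.00291, and 1.28 with the offset). ITGB5 was the remaining gene called both ways, at 0.96 and 0.70 with the offset. In LPS_ABS against control 5 rose and 1 fell without correction and 3 rose and 0 fell with it (33.8% and 13.0% of all genes), MMP9 and MMP14, another protease, being the 2 called both ways (1.34 and 0.82).

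Of 34 regulators of the signal, 4 rose and 2 fell in LPS against control, beside 14.9% of all genes, and all 6 were called with the GC offset as well. LDLRAD4, a membrane protein that keeps SMADs from the receptor, was at 18.4 ± 1.22 CPM in LPS and 5.56 ± 1.02 CPM in control libraries (log2 fold change 1.72 ± 0.21, edgeR adjusted p = 3.4e-04). TGIF1, a co-repressor of SMADs, rose by 0.63 (adjusted p = 0.00894). Of the phosphatases of the CTDSP family, which act on SMADs, CTDSP2 rose by 0.75 and CTDSPL fell by 0.75 (adjusted p = 0.00233 and 0.00609). Against LPS, 6 regulators rose and 10 fell in LPS_ABS without correction and 3 rose and 1 fell with it, beside 35.6% and 9.26% of all genes. LDLRAD4 was at 7.03 ± 1.74 CPM in LPS_ABS and 18.4 ± 1.22 CPM in LPS libraries (-1.39 ± 0.21, adjusted p = 0.00314, and -1.18 with the offset), and CTDSPL rose by 0.82 (0.81 with the offset). WWP1 and TRIM33, both ubiquitin ligases, fell without correction (-1.0 and -0.75) and were not called with it. In LPS_ABS against control 8 rose and 7 fell without correction and 4 rose and 1 fell with it (33.8% and 13.0% of all genes), and TGIF1 was higher both ways, at 0.89 and 1.45.

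Of 37 genes known as TGF-beta targets, 7 rose and 2 fell in LPS against control (median 0.23), beside 14.9% of all genes, and all 9 were called with the GC offset too. VEGFA, a growth factor of blood vessels, was at 246.0 ± 17.1 CPM in LPS and 49.0 ± 9.98 CPM in control libraries (log2 fold change 2.33 ± 0.23, edgeR adjusted p = 1.3e-04). TGFBI, a matrix protein, rose by 0.72, RHOB, a small GTPase, by 1.18 and KLF10, a transcription factor, by 0.99 (adjusted p = 0.00247 to 0.00332). Against LPS, 8 targets rose in LPS_ABS and 0 fell without correction (median 0.36), and 4 rose and 1 fell with it (median 0.09), beside 35.6% and 9.26% of all genes. ZFP36L1, an RNA-binding protein that speeds mRNA decay, was at 13.4 ± 3.01 CPM in LPS_ABS and 6.62 ± 1.22 CPM in LPS libraries (1.02 ± 0.23, adjusted p = 0.00798, and 0.93 with the offset). In LPS_ABS against control 13 rose and 0 fell without correction (median 0.60), and 9 rose and 1 fell with it (median 0.28), beside 33.8% and 13.0% of all genes. The list mixes genes that other signals also switch on.

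COL1A1, a collagen of the target list that is also a fibroblast marker, was called in LPS_ABS against LPS at very low levels, 0.503 ± 0.193 CPM in LPS_ABS and 0.0738 ± 0.0442 CPM in LPS libraries (log2 fold change 2.73 ± 0.67, edgeR adjusted p = 0.011). The fibroblast markers, 8 of 10 in the tables, summed to 0.619 to 1.05 FPKM in LPS_ABS, 0.365 to 0.609 FPKM in LPS and 0.412 to 0.75 FPKM in control libraries. PDGFRB made up most of the sum, at 0.192 to 0.804 FPKM. DCN, LUM, FAP and POSTN were at 0 in some libraries and at most at 0.0751 FPKM, and COL1A1, COL1A2 and PDGFRA were at most at 0.109, 0.27 and 0.0443 FPKM. The chondrocyte markers, 5 of 10 in the tables, summed to 0.0559 to 0.231 FPKM in LPS_ABS, 0.0633 to 0.109 FPKM in LPS and 0.105 to 0.18 FPKM in control libraries. The fibroblast sums of LPS_ABS lay above those of LPS and overlapped those of the controls, while the chondrocyte sums overlapped between all groups. The part of these markers in the results was not tested.

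**Figure D5:**
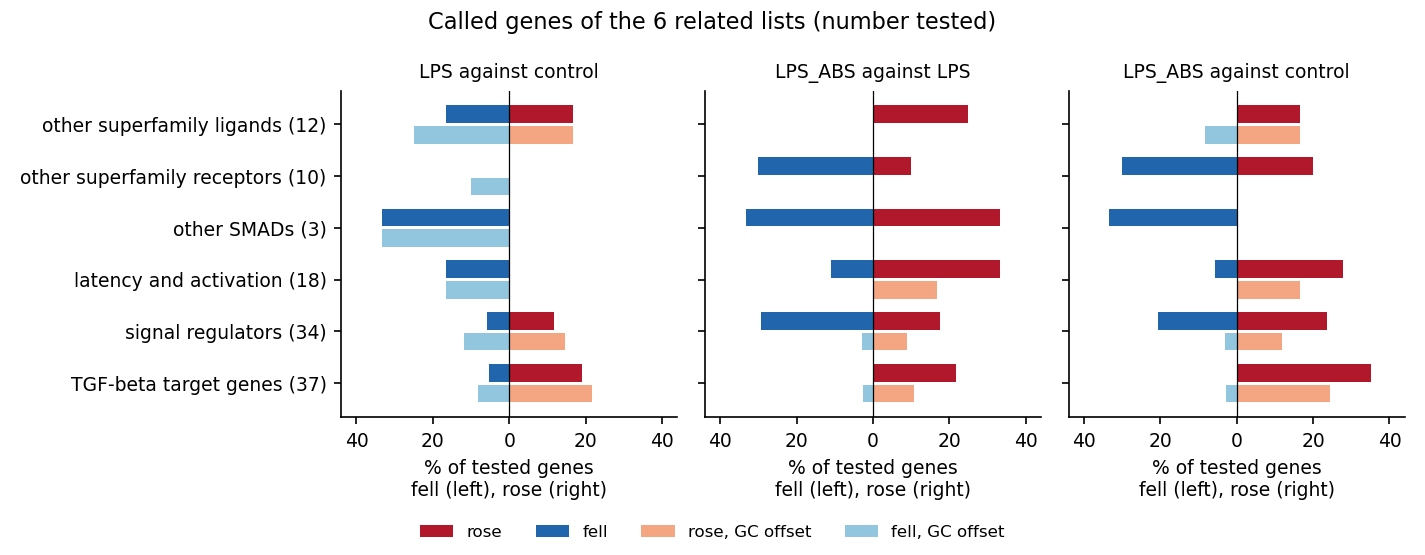
Share of the tested genes of 6 related lists that rose (right) or fell (left) in the 3 comparisons, without GC correction (dark) and with the GC offset (light); the number tested stands beside each list. In LPS_ABS against LPS 6 regulators are higher and 10 lower without correction, and 3 are higher and 1 lower with it.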

How the data were processed

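The 9 RNA-seq libraries were grouped by their labelled treatment, and table columns were matched to samples by title. Per the labels' protocols RNA was extracted with TRIzol, and a TruSeq stranded kit and a VAHTS Universal V5 kit are both named. DESeq2, HTSeq, HISAT2, fastp and R 3.2.0 are listed, without their roles, per the submitters' processing notes. The genome build, annotation and strand setting are not given in the sources used here. The authors deposited raw read counts per gene and FPKM values, and the FPKM values could be rebuilt from the counts, library totals and 1 fixed length for each gene.

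The test was that of edgeR 4.0.16 (R 4.3.3): filterByExpr on group (12970 genes), TMM scaling, 3 group means fitted to all 9 libraries (6 residual degrees of freedom), quasi-likelihood F tests, and Benjamini-Hochberg adjustment over all genes tested. The call threshold was an adjusted p of 0.05. The common coefficient of variation was 18.4%, so the spread between libraries exceeded counting error for all but low genes. The GC offset was a lowess fit (span 0.3) per library on transcript GC content (the longest protein-coding transcript in GENCODE), found for 16115 of 16222 genes (99.34%). It followed from an earlier look at these data. DESeq2 1.42.0, total-count scaling, no filter, 2 groups only, a replicate block and leaving out each library were alternatives. The procedure was tested on simulated data that carried no GC trend in any group, so that test could not show how the offset acts on such a trend. No pair of libraries within a group was a duplicate (lowest chi-square per degree of freedom 7.07).

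The members and lists were chosen with earlier results of these data known. Besides the 10 members, up to 4 genes per list and comparison with the smallest adjusted p were named, among called genes. ENG, COL1A1 and others come from this rule, while TGFBR3 was named after its values were seen. A member of the target list is not reported here by name. Promoter windows are RefSeq's and matched all 10 members by gene ID.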

Additional observations from a re-analysis of the deposited data

How the results depend on the processing

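The SMAD7 and SKIL calls in LPS against control were the same 2 calls with total-count scaling, DESeq2, no filter, 2 groups only, the replicate block and the GC offset. Leaving out a library gave 0 to 2 called members without the offset and 2 to 3 with it, 0 to 3 over both. For LPS_ABS against LPS, where 6 members were called, 7 were called with DESeq2 (TGFB3 gained), 5 with 2 groups only (SMAD4 lost), 1 with the GC offset and 1 with the offset and the replicate block. Leaving out a library gave 4 to 6, and 0 to 2 with the offset. For LPS_ABS against control, where 2 were called, 5 were called with DESeq2 (SMAD2, SMAD3, SMAD4, SMAD7 and TGFBR1), 4 with no filter, 5 with 2 groups only, 4 with the replicate block (SMAD2, SMAD3, SMAD7 and TGFBR1), 1 with the GC offset and 1 with the offset and the block. Leaving out a library gave 0 to 6, and 0 to 2 with the offset.

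Among the named genes, for which the alternatives were run, called values changed sign only with the GC offset. In LPS_ABS against LPS, SMAD2 became 0.11 (0.11 with the block) and SMAD4 0.06 (0.05 with the block), and BMP1 became -0.03 (-0.03 with the block). SMAD5 turned only in 2 of the fits with a library left out and the offset. With a library left out, over the fits without and with the offset, SMAD2 ran from -0.54 to 0.2, SMAD4 from -0.59 to 0.18, BMP1 from -0.11 to 0.49 and SMAD5 from -1.0 to 0.02. In LPS_ABS against control SMAD2 became 0.21 (0.21 with the block; -0.45 to 0.3 with a library left out) and BMPR2 0.01 (-0.84 to 0.14). Of the list genes not named, ZEB2 and TAB2 turned with the offset in both LPS_ABS comparisons and PPM1A in LPS_ABS against control; these were picked after their values were seen. Total-count scaling turned no called value. The cause of the GC trend was not tested.

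Same-numbered libraries did not deviate together (correlations -0.0352 to 0.203), so the numbers were not taken as pairs, and the replicate block stands only as an alternative. Depth limits TGFB2, with 6 to 40 reads per library.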
